A study of Mus musculus with 3 samples.

Results

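The genes described here are the lysosomal cathepsins Ctsb, Ctsc, Ctsd, Ctsh, Ctsk, Ctsl, Ctss and Ctsz and the cysteine protease inhibitor cystatin C, Cst3. They were taken by symbol from the gene list of the count matrices and are 9 of 24357 genes named there, and all 9 were present in each of the 3 matrices. No measured value entered the rule that names them, but they were chosen with earlier results of these data known.

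RNA was measured in single cells of inflamed knee synovium, the tissue that lines the joint, from female wild type C57BL/6 mice aged 8 weeks. All mice had collagen- and antibody-induced arthritis. Each received 100 µg of type II collagen on day 0, 1 mg of antibodies to type II collagen on day 21 and lipopolysaccharide, a bacterial product given to bring on the disease more strongly and at one time, on day 22, and tissue was taken in the effector phase. The 3 libraries, replicates 1 to 3, each hold tissue of 2 pooled mice, 6 mice in all. Every mouse was arthritic and none was an untreated control, so the comparisons are between cell classes of the same libraries and say nothing of arthritis against health.

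Cathepsins are proteases that cut proteins in acid lysosomes, and some also act outside the cell. Most of those described here are cysteine proteases, which cystatin C inhibits, while cathepsin D is an aspartic protease that cystatins do not inhibit. In a joint, cathepsin K is known as the collagen-degrading enzyme of osteoclasts, the cells that resorb bone, and cathepsin S as the enzyme that trims the invariant chain of MHC class II in antigen-presenting cells.

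Promoter sequence is shown for 4 of the genes. Ctsk and Ctss are neighbours on chromosome 3 with 0 protein-coding genes between them and were highest in different cell classes. Ctsd and Ctsl were each called higher in a macrophage class than in infiltrating monocytes. The mean of Ctsl was highest in adipocyte-like cells, whose libraries overlapped those of Spp1-Arg1-macrophage-like cells. The table of promoters from RefSeq (GRCm38.p6, an earlier build than that of the matrices) matched 7 of the 9 genes, all but Ctsb and Ctsh. Each line gives the 250 bases before the start, 5′ to 3′ on the gene's strand. The windows are chr7:142387828-142388077 on the minus strand for Ctsd, chr13:64370521-64370770 on the minus strand for Ctsl, chr3:95498960-95499209 on the plus strand for Ctsk and chr3:95526536-95526785 on the plus strand for Ctss. Capitals mark matches on either strand to the motifs searched.
Ctsd: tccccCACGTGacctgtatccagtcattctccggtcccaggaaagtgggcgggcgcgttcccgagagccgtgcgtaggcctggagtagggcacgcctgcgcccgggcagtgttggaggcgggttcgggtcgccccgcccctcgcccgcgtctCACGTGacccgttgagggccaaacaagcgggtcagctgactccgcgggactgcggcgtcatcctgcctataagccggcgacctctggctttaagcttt
Ctsl: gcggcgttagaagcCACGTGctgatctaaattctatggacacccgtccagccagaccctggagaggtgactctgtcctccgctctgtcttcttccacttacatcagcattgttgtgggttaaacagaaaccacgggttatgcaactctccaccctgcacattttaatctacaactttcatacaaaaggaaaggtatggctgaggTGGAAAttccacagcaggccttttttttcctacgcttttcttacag
Ctsk: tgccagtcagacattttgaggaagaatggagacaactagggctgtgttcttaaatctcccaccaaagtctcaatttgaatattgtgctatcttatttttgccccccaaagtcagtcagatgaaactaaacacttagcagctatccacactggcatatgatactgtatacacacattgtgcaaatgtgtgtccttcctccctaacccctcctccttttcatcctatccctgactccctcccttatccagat
Ctss: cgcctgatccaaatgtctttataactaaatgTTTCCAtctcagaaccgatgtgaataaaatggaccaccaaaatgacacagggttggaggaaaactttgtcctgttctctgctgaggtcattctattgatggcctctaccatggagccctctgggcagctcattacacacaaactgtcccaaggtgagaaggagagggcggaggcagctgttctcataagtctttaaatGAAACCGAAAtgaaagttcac
The motifs were chosen after the sequences had been seen. CACGTG, the core of the lysosomal CLEAR element, began 245 and 98 bases before the start of Ctsd and 236 bases before that of Ctsl, and is held by 6.02% of the 32851 promoter windows. GAAA, any 2 bases and GAAA again, the core of the interferon-stimulated response element, began 21 bases before the start of Ctss and is held by 2.98% of windows. GAGGAAGT, a PU.1 type motif, was found 151 bases before the start of Ctsc (2.44% of windows), whose sequence is not printed. TGGAAA, an NFAT type motif, is common (18.6% of windows) and was found in Cst3, Ctsl and Ctss. Ctsk held none of the 4 in this window. Ctsz, whose mean was highest in Spp1-Arg1-macrophage-like cells and whose sequence is not printed, held none either. A match describes letters and is not a measured binding site.

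The matrices held 38804 barcodes with 99782608 to 116125707 UMIs (unique molecular identifiers, which count captured RNA molecules) per library, and 36875 cells were kept. The labels state 11111, 10668 and 14363 cells, fewer than the 11939, 11602 and 15263 barcodes in the matrices. Cells were put in classes by gates on marker genes that did not include the 9 genes. The gates placed 32847 cells, 89.1%. Of these, 2470 (7.52%) led by only 1 marker, counted before macrophages, fibroblasts and neutrophils were divided further. Class names end in "-like" because they rest on RNA alone. The monocyte/macrophage-like class held 9265 cells, of which 342 were resident-macrophage-like (Vsig4, Cd163, Folr2 and others), 1419 Spp1-Arg1-macrophage-like (Spp1, Arg1, Fabp5, Trem2), 3456 MHC-class-II-macrophage-like and 1474 infiltrating-monocyte-like (Ly6c2, Ccr2 and others). There were 11933 neutrophil-like, 7045 fibroblast-like, 338 osteoclast-like and 174 dendritic-cell-like cells, and 20 of the finest classes had at least 20 cells in every library. The finer classes were less firm when classes were taken from clusters. The same class was then given to 97.9% of monocyte/macrophage-like cells. This was 56.4% for resident-macrophage-like, 63.6% for MHC-class-II-macrophage-like, 71.2% for infiltrating-monocyte-like and 87.5% for Spp1-Arg1-macrophage-like cells. It was 60.1% for immature-neutrophil-like, 82.9% for lining-fibroblast-like and 93.7% for sublining-fibroblast-like cells.

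Levels are UMIs per 1000000 UMIs of a class in a library, as mean ± SD of the 3 libraries (n = 3). Droplets also capture free RNA, so every class carries some RNA it did not make. An upper estimate of it was set per library and class by taking every neutrophil S100a8 and S100a9 UMI outside neutrophils as free RNA, with collagen genes used for the neutrophils themselves. This put free RNA at 14.4% to 24.0% of the UMIs of monocyte/macrophage-like cells and at 14.8% to 21.2% of those of fibroblast-like cells. A level under 2 times this estimate is treated here as not separable from background. By that measure Cst3 stood above background in 16 of 20 classes, Ctsb, Ctsd and Ctsz in 15, Ctsl in 14, Ctsh in 13, Ctsc in 8, Ctss in 7 and Ctsk in 6.

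**Figure D1:**
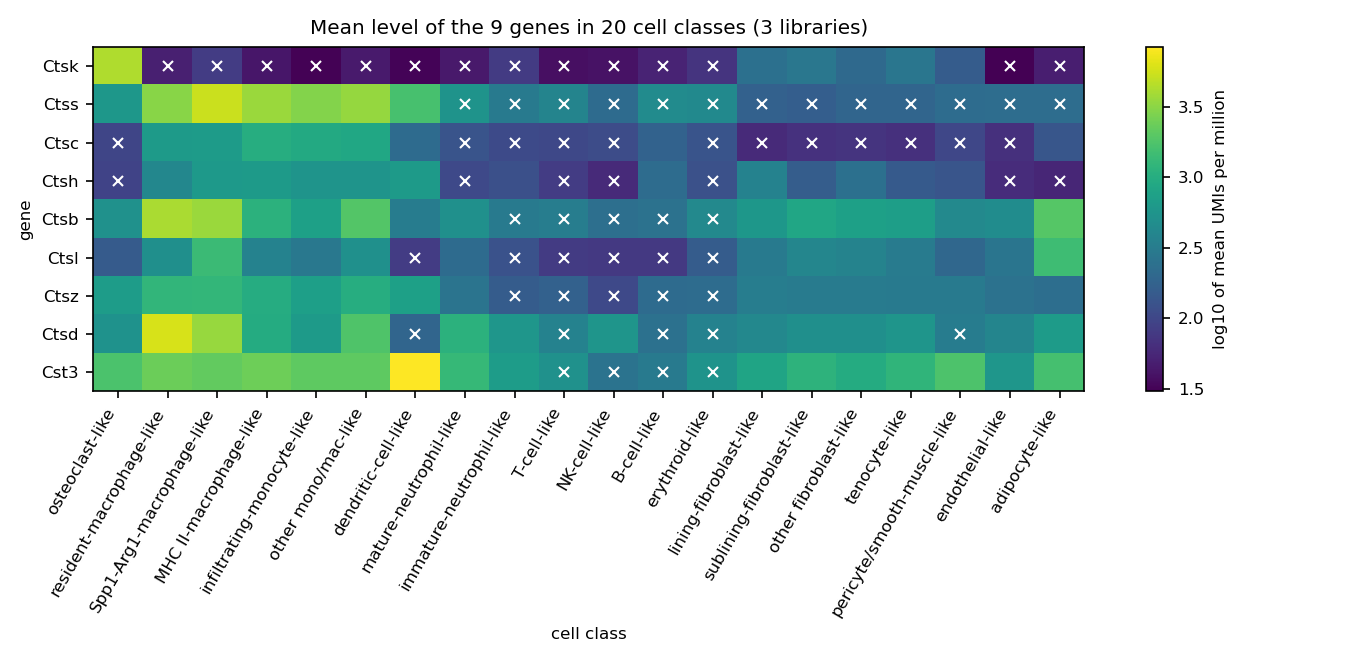
Mean level of the 9 genes (rows) in 20 cell classes (columns), as log10 of UMIs per 1000000 over 3 libraries; a white cross marks a level under 2 times the free-RNA upper estimate. Ctsk is bright in the osteoclast-like column and above background in only 6 classes, while Cst3 is above it in 16.

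Differences between classes were tested with edgeR's quasi-likelihood test on UMIs summed per library, with the library as a block. A gene was called higher or lower where its Benjamini-Hochberg adjusted p over all genes tested was under 0.05 and it differed by 1 or more on the log2 scale. Each p rests on variation between the 3 libraries of pooled mice, with the spread of each gene moderated by that of all genes tested. It and the standard error, which was derived from the same test, therefore do not measure the spread of that gene alone. The classes were gated on the same UMIs. 4 of the 7 comparisons share the monocyte/macrophage-like sums and 2 share the infiltrating-monocyte-like sums. Fold changes follow TMM scaling and so need not equal ratios of the levels. A lower level in a class sum can be lower RNA per cell or fewer cells with the RNA, and these cannot be told apart from the sums.

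Ctsk, the collagenolytic cathepsin, marked the osteoclast-like class. Its level there was 4444, 4166 and 4253 UMIs per 1000000 in replicates 1, 2 and 3, against 56.3, 39.7 and 51.0 in the monocyte/macrophage-like class. Every osteoclast-like library was far above every monocyte/macrophage-like one. The log2 fold change was 6.45 ± 0.11 (SE; adjusted p = 2.27e-15, edgeR). The osteoclast-like cells were 0.928% of cells and held 2.08% of all UMIs but 49.1%, 44.3% and 30.3% of the Ctsk UMIs of replicates 1, 2 and 3. The lowest of these shares came from replicate 3, where the class held 1.37% of all UMIs, against 2.57% and 2.30% in replicates 1 and 2. After every cell was thinned to 1000 UMIs, which left no cell out, 74.4% ± 4.32 of osteoclast-like cells had a Ctsk UMI, against 3.33% of erythroid-like cells, a class that should lack it. Unthinned, the shares were 92.4% and 13.3%, at median depths of 11184 to 18606 and 1920 to 3201 UMIs per cell.

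Most of the other proteases were lower in the osteoclast-like class than in the monocyte/macrophage-like class. Of the 9 genes, 1 was higher and 6 were lower than in the monocyte/macrophage-like class, where 28.5% of 12898 tested genes were called, 11.6% higher and 16.9% lower. The median log2 fold change of the 9 was -1.80, against -0.04 over all genes. Ctsc, the dipeptidyl peptidase that activates granule proteases, had the lowest log2 fold change, -3.23 ± 0.12 (SE; adjusted p = 4.95e-12, edgeR), with levels of 97.1 ± 30.4 and 878 ± 87.2. Ctss was lower, at 595 ± 131 against 3762 ± 755, and the ranges of the libraries did not overlap. Ctsh, an aminopeptidase, was at 93.6 ± 40.1 against 599 ± 50.9. Ctsb, Ctsd and Ctsl were lower as well, at 523 ± 84.4, 536 ± 93.3 and 151 ± 69.1 against 1808 ± 282, 1787 ± 391 and 586 ± 186. Ctsz, a carboxypeptidase, and Cst3 were not called, with log2 fold changes of -0.57 and -0.43. The levels of Ctsc and Ctsh in the osteoclast-like class were under 2 times the free-RNA estimate, so their fold changes are limited by background.

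The osteoclast label rested on Acp5, at 5476 ± 289 UMIs per 1000000, and Atp6v0d2, at 665 ± 47.1, while Csf1r was at 550 ± 47.5 and the fibroblast gene Col1a1 at 2167 ± 269, close to its 1832 ± 121 in the monocyte/macrophage-like class. At least 2 proliferation markers were positive in 16.6% of osteoclast-like cells. Their part in the result was not tested. Among the lysosomal genes listed beside the cathepsins, 9 of 15 tested subunits of the proton pump, which acidifies lysosomes and the resorption space, were higher and 1 was lower, with a median log2 fold change of 1.18. Atp6v1b2, a subunit of the ATP-hydrolysing part, was at 438 ± 33.6 against 114 ± 3.43. Atp6v0a1, a membrane subunit, went the other way, at 10.9 ± 1.40 against 68.8 ± 5.22. Of 25 lysosomal hydrolases 2 were higher and 6 lower. Arsb, a sulfatase, had a log2 fold change of 3.31 ± 0.12 (SE; adjusted p = 3.70e-12, edgeR), from 10.9 ± 1.55 to 109 ± 27.5. Lgmn, the protease legumain that processes several cathepsins, was lower at 119 ± 29.8 against 714 ± 129. Cst7, cystatin F, an inhibitor inside the endolysosome, was higher at 18.6 ± 9.44 against 2.47 ± 0.574. None of the 5 listed regulators of lysosomal genes was called. Among the membrane and hydrolase genes, Lamp1, an abundant lysosomal membrane protein, was at 121 ± 24.2 against 632 ± 71.5, Ppt1, a thioesterase, at 31.7 ± 8.06 against 105 ± 4.77 and Gnptab, which adds the sorting tag of lysosomal enzymes, at 95.1 ± 15.3 against 47.5 ± 2.27. Ctsf was called higher, at 11.8 ± 3.43 against 4.71 ± 1.22. The other tested cathepsins and inhibitors were not called, with log2 fold changes in parentheses: Ctsa (-0.20), Ctse (-1.21), Ctso (-0.77), Ctsw (-0.12), Cstb (-0.11), Stfa1 (-0.28), Stfa2 (-0.73), Stfa2l1 (0.40) and Serpinb1a (0.36).

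**Figure D2:**
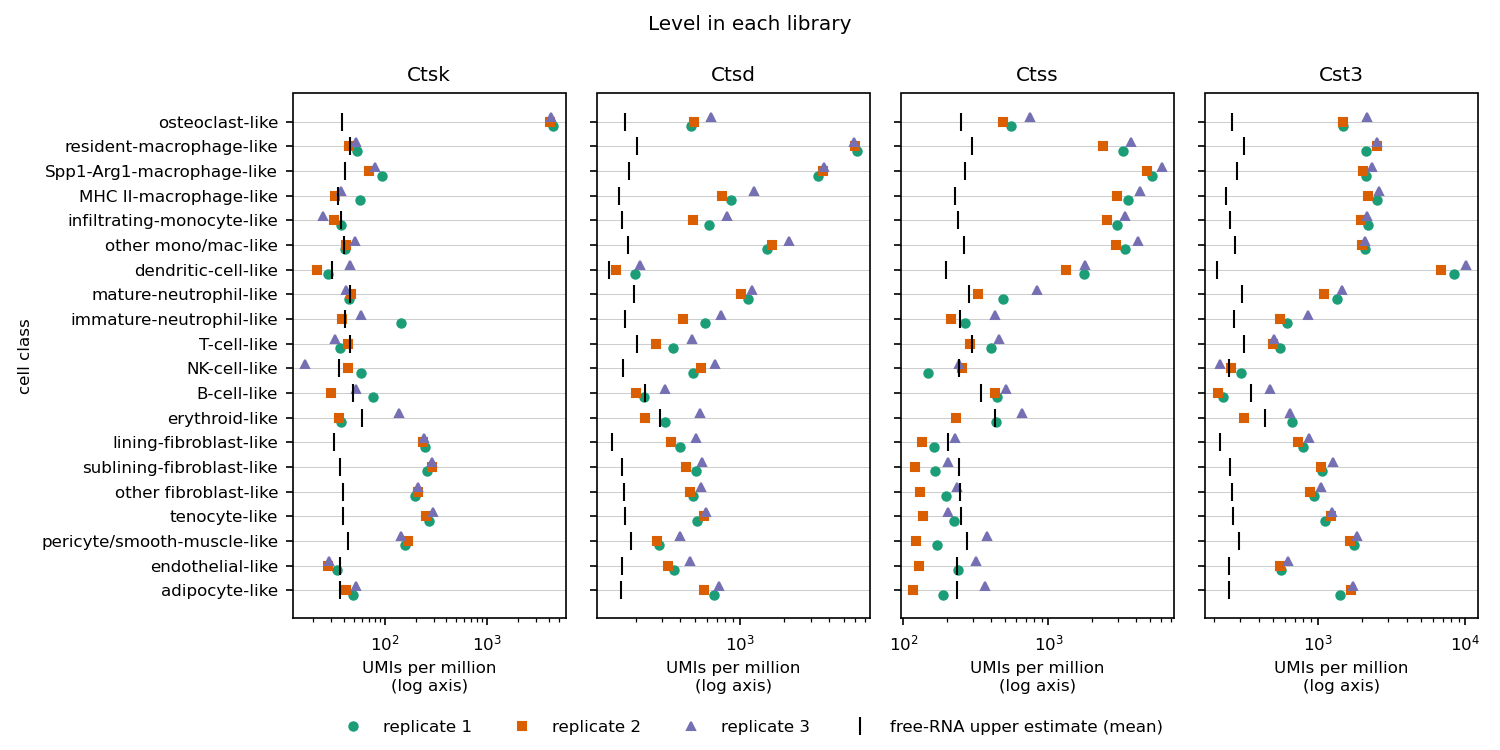
UMIs per 1000000 (log axis) of Ctsk, Ctsd, Ctss and Cst3 in each library (symbols) for 20 cell classes (rows); the vertical tick is the mean free-RNA upper estimate. Ctsk lies at 4166 to 4444 in the osteoclast-like class and under 300 in every other class shown.

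Fibroblasts, a large class, held much of the remaining Ctsk. The level was 223, 236 and 235 UMIs per 1000000 in the fibroblast-like class, above every monocyte/macrophage-like library. The log2 fold change was 2.32 ± 0.10 (SE; adjusted p = 5.03e-11, edgeR), and the class held 29.9%, 37.0% and 46.9% of the Ctsk UMIs of replicates 1, 2 and 3. Its shares of all UMIs were 31.1%, 33.9% and 38.3%, so these Ctsk shares lay near the size of the class. The sublining-fibroblast-like (279 ± 17.6), tenocyte-like (275 ± 21.6) and lining-fibroblast-like (241 ± 5.62) classes followed the osteoclast-like class in the order of levels. The first 2 of these overlapped and the lining-fibroblast-like libraries lay below both. Pericyte/smooth-muscle-like cells, which wrap vessels, were at 157 ± 14.0. After thinning, 19.7% of fibroblast-like and 4.37% of monocyte/macrophage-like cells had a Ctsk UMI, the latter close to the 3.33% of erythroid-like cells.

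Of the 9 genes, 1 was higher and 7 were lower in fibroblast-like than in monocyte/macrophage-like cells, where 42.5% of 15267 genes were called, 23.6% higher and 18.9% lower. Ctsl was the gene not called, at 366 ± 14.9 against 586 ± 186 (log2 fold change -0.56). Ctss, at 179 ± 49.7, was below its free-RNA estimate of 234, and Ctsc, at 66.9 ± 9.50, was near its estimate of 57.1. Their log2 fold changes of -4.33 and -3.64 are therefore set on the fibroblast side by background. Ctsb, Ctsh, Cst3, Ctsz and Ctsd were lower by smaller amounts, with log2 fold changes from -1.14 for Cst3 to -1.80 for Ctsd, and each stood at over 2 times the estimate in the fibroblast-like class. With cells thinned to 1000 UMIs the log2 fold change of Ctsb was -0.95, which no longer met the fold needed for a call. Of the other lysosomal genes, 9 of 15 genes of the lysosomal membrane and sorting were lower and 1 higher. Cd63, a tetraspanin, was the higher one, at 1965 ± 151 against 698 ± 125. Of the proton pump subunits 10 of 15 were lower and 0 higher. Ctsf, another cysteine cathepsin, was higher in fibroblast-like cells at 29.6 ± 7.82 against 4.71 ± 1.22. The carboxypeptidase Ctsa was lower at 158 ± 20.7 against 436 ± 23.5, as was Ctse at 0.969 ± 0.241 against 2.56 ± 0.570. Of 10 inhibitors and processing genes 4 were higher and 3 lower. Serpinb1a was at 116 ± 23.0 against 11.2 ± 2.03, Stfa3 at 7.01 ± 2.58 against 0.737 ± 0.0872, Cst6 at 3.97 ± 0.419 against 0.412 ± 0.151 and Serpinb6b at 1.99 ± 0.304 against 0.489 ± 0.0937. Lgmn was at 121 ± 13.4 against 714 ± 129, Cstb at 417 ± 46.0 against 1554 ± 238 and Cst7 at 0.487 ± 0.194 against 2.47 ± 0.574. Of the remaining lists, Cd68, a macrophage lysosomal glycoprotein, was at 41.8 ± 7.10 against 631 ± 74.9 and Atp6v1b2 at 26.8 ± 0.0549 against 114 ± 3.43. Gaa, the lysosomal glucosidase, was higher at 107 ± 14.3 against 35.6 ± 3.67, and Psap, the precursor of the saposins, lower at 800 ± 81.2 against 3220 ± 447. Tfec was at 2.28 ± 0.304 against 36.5 ± 2.30, and 4 of 5 regulators were lower. Not called, with log2 fold changes, were Ctsg (-0.78), Ctso (-0.35), Ctsw (0.62), Stfa1 (-0.09), Stfa2 (-0.51) and Stfa2l1 (-0.05).

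Within fibroblasts, the lining class makes the surface layer of the joint. Against the sublining class 1 of the 9 genes was called, where 12.6% of 12588 genes were called, 4.73% higher and 7.87% lower. This count lay near the share over all genes. Ctsh was at 365, 345 and 389 in lining-fibroblast-like cells and at 188, 125 and 167 in sublining-fibroblast-like cells. The libraries of the pair of classes did not overlap. The log2 fold change was 1.11 ± 0.08 (SE; adjusted p = 1.28e-06, edgeR), close to the limit of a call. Without replicate 2 it was 0.98, and with classes taken from clusters 0.75, so neither met that limit. The other 8 genes were not called and lay between -0.61 for Cst3 and -0.01 for Ctss. Cst3, Ctsb (-0.60), Ctsl (-0.50), Ctsd (-0.38), Ctsk (-0.32) and Ctsc (-0.31) were lower in all 3 libraries. Their adjusted p ran from 3.75e-06 for Cst3 to 0.006 for Ctsc (edgeR), so only the fold kept them from a call. Ctsc was near its free-RNA estimate in both classes. Ctsf was lower in the lining class, at 16.6 ± 4.93 against 42.9 ± 14.1. Ctsw, a cathepsin of cytotoxic lymphocytes, was at 2.17 ± 0.941 against 0.809 ± 0.342. None of the 15 proton pump subunits and none of the 25 hydrolases was called. Other cathepsins and inhibitors not called, with log2 fold changes, were Ctsa (-0.19), Ctso (0.12), Cstb (0.64), Stfa1 (-0.50), Stfa2l1 (-0.50), Lgmn (-0.48), Serpinb6b (-0.59) and Serpinb1a (-0.17). At least 2 proliferation markers were positive in 16.2% of lining-fibroblast-like and 5.75% of sublining-fibroblast-like cells, and the part of this in the result was not tested.

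Ctsd and Ctsb were higher in resident-macrophage-like and Spp1-Arg1-macrophage-like cells than in infiltrating-monocyte-like cells. Ctsd, the aspartic cathepsin, was at 6188, 5934 and 5851 UMIs per 1000000 in resident-macrophage-like cells and at 619, 487 and 818 in infiltrating-monocyte-like cells. Ctsb was at 4698, 4003 and 3754 against 710, 627 and 875. For both genes every resident library lay several fold above every infiltrating one. The log2 fold changes were 3.35 ± 0.16 (SE; adjusted p = 1.33e-19, edgeR) for Ctsd and 2.59 ± 0.15 (SE; adjusted p = 2.88e-17, edgeR) for Ctsb. These 2 genes were the ones called higher, and 0 of the 9 were lower, where 18.8% of 9676 genes were called, 10.5% higher and 8.28% lower. Ctss did not differ by a called amount (0.16 ± 0.13, SE; higher in 2 of 3 libraries), nor did Cst3 (0.28), Ctsc (-0.40) or Ctsh (-0.37). Ctsl (0.88) and Ctsz (0.87) were higher in all 3 libraries and under the fold needed for a call.

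The Spp1-Arg1-macrophage-like class shared the same infiltrating-monocyte-like sums as its reference, so the values are set side by side and not compared as independent results. Ctsd was at 3356, 3627 and 3662 and Ctsb at 3599, 3766 and 3541, again with no overlap with the infiltrating libraries. The Ctsb libraries overlapped those of the resident class, though within each of the 3 libraries Ctsb was higher in the resident class. The Ctsd libraries lay below those of the resident class. Ctsl was at 1367, 1269 and 1605 against 282, 246 and 339. Its log2 fold change was 2.42 ± 0.10 (SE; adjusted p = 1.35e-17, edgeR), while those of Ctsd and Ctsb were 2.62 and 2.44. Ctsk was the fourth gene called, with a log2 fold change of 1.48 ± 0.12 (SE; adjusted p = 5.62e-11, edgeR), yet its level of 81.1 ± 12.1 was under 2 times the free-RNA estimate of 41.0. In all 4 of the 9 genes were higher and 0 lower, where 12% of 10878 genes were called, 5.49% higher and 6.47% lower. Ctss was at 5316 ± 648 against 2954 ± 428, the highest level of this gene in any class, and its log2 fold change of 0.97 lay just under the limit of a call. Ctsz was at 1263 ± 35.8 against 730 ± 126 (0.92). Both were called with classes from clusters (Ctss 1.03, Ctsz 1.14) and with free RNA subtracted (Ctss 1.11, Ctsz 1.09), which brought the genes called to 6, and Ctss was also called without replicate 1.

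Other lysosomal genes were higher in both macrophage classes. Of 25 hydrolases, 14 were higher in resident-macrophage-like and 12 in Spp1-Arg1-macrophage-like cells, and 0 were lower in either. Dpp7, a dipeptidyl peptidase, was at 76.8 ± 9.66 and 53.2 ± 4.49 against 14.0 ± 3.10 in infiltrating-monocyte-like cells. Of 15 membrane and sorting genes 7 were higher in each. Cd63 was at 1440 ± 38.9 and 1173 ± 98.8 against 199 ± 46.4. Lgmn was at 1348 ± 50.8 and 1128 ± 64.6 against 323 ± 60.8. Of the proton pump 0 of 15 subunits were called in either. Cstb, stefin B, a cytosolic cathepsin inhibitor, was called in the Spp1-Arg1 class, at 2280 ± 33.1 against 1085 ± 291, and not in the resident class (1219 ± 82.0). Ctsf was called higher in the resident class alone of the pair, at 24.1 ± 6.07 against 2.49 ± 1.27, a difference between the classes that was not tested, and Ctse lower in the Spp1-Arg1 class, at 1.45 ± 0.440 against 4.57 ± 1.64. Sort1, a sorting receptor, was lower in the resident class at 8.18 ± 2.35 against 25.0 ± 7.15. Not called in the resident class, with log2 fold changes, were Ctsa (0.75), Ctso (0.62), Cstb (0.29), Stfa1 (0.29), Stfa2l1 (0.17) and Serpinb1a (0.31). Not called in the Spp1-Arg1 class were Ctsa (0.62), Ctsf (0.79), Ctso (0.46), Stfa1 (0.12), Stfa2l1 (0.39) and Serpinb1a (-0.27).

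MHC-class-II-macrophage-like cells held the highest Ctsc, at 1002 ± 79.7, with the infiltrating-monocyte-like class next at 926 ± 180, and the libraries of the 2 overlapped. Their Ctss was at 3592 ± 669, below the Spp1-Arg1 class in every library. Of the UMIs of a library, monocyte/macrophage-like cells held 78.5% ± 1.17 for Ctss and 73.5% ± 2.17 for Ctsc but 6.13% for Ctsk, beside 26.2% ± 4.03 of all UMIs.

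**Figure D3:**
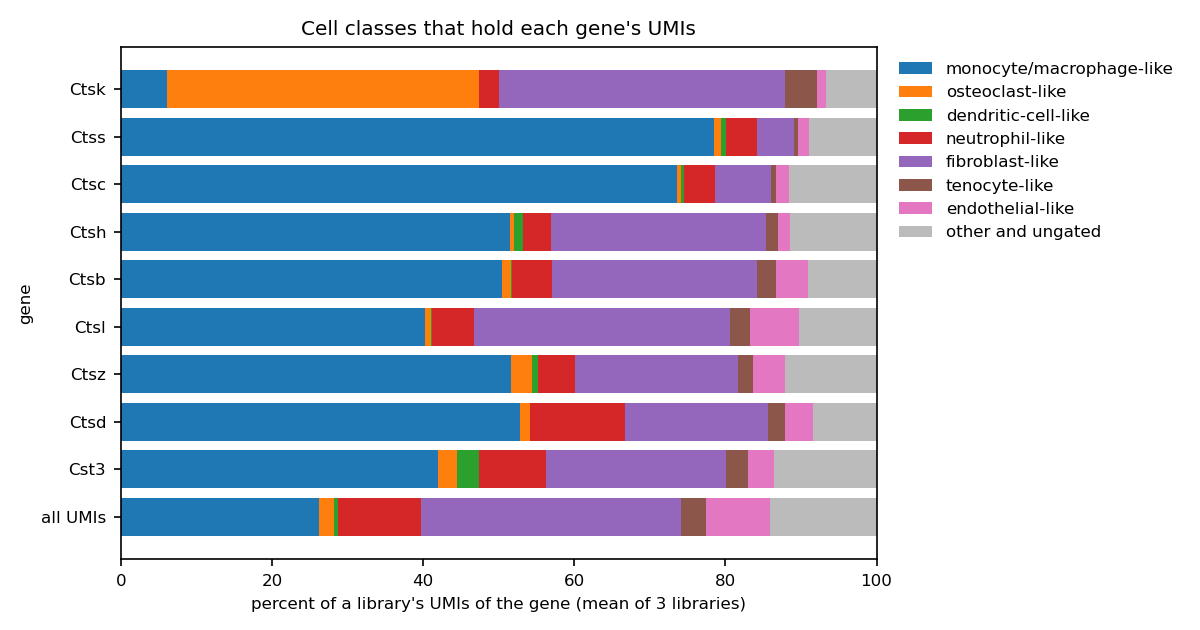
Percent of a library's UMIs of each gene held by each cell class (stacked bars, mean of 3 libraries), with the share of all UMIs in the bottom bar. Ctsk UMIs lie mainly in osteoclast-like and fibroblast-like cells, and Ctss UMIs in monocyte/macrophage-like cells (78.5%). Fibroblast-like cells also held 34.5% of all UMIs.

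Cst3 was highest in the dendritic-cell-like class, whose cells present antigen to T cells. It was at 8401, 6779 and 10036 UMIs per 1000000 there, against 2300, 2101 and 2359 in monocyte/macrophage-like cells. Each dendritic-cell-like library lay above every other class. The log2 fold change was 1.78 ± 0.10 (SE; adjusted p = 1.44e-39, edgeR). Of the 9 genes this 1 was higher and 5 were lower, where 12.9% of 12763 genes were called, 5.83% higher and 7.03% lower. Ctsd, at 188 ± 35.3, Ctsl, at 81.4 ± 9.01, and Ctsb, at 320 ± 13.2, had log2 fold changes of -3.35, -2.90 and -2.59, and Ctsd and Ctsl were under 2 times the free-RNA estimate. Ctss, was at 1761, 1320 and 1792, with a log2 fold change of -1.31 ± 0.10 (SE; adjusted p = 9.54e-25, edgeR). With classes taken from clusters this was -0.89 and not a call. Ctsh did not differ by a called amount, at 652 ± 20.7 against 599 ± 50.9 (log2 fold change 0.03, higher in 2 of 3 libraries).

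The dendritic-cell-like label rested on Flt3 and other markers, and Flt3 was at 252 ± 4.54 against 4.70, 6.87 and 3.42 in the 3 libraries of monocyte/macrophage-like cells. After thinning, 88.2% ± 7.03 of these cells had a Cst3 UMI, against 27.8% of erythroid-like cells, and unthinned 97.2% against 48.1%. Inhibitors other than Cst3 went both ways in dendritic-cell-like cells. Cst7 was at 41.0 ± 24.1 against 2.47 ± 0.574 and Serpinb6b, a serine and cysteine protease inhibitor, at 36.6 ± 18.8 against 0.489 ± 0.0937. Cstb was lower at 401 ± 139 against 1554 ± 238. Lgmn was lower at 98.5 ± 28.7. Of 25 hydrolases 12 were lower and 2 higher, with a median log2 fold change of -0.84. Of 5 lysosomal gene regulators 3 were lower, among them Tfec, a factor related to Mitf, at 3.45 ± 0.967 against 36.5 ± 2.30. Pla2g15, a lysosomal phospholipase, was lower at 9.84 ± 4.50 against 52.6 ± 0.910, Igf2r, the sorting receptor for lysosomal enzymes, at 20.2 ± 8.65 against 76.6 ± 10.1 and Atp6v1b2 at 47.5 ± 13.2 against 114 ± 3.43. Ctsa was lower at 219 ± 61.8 against 436 ± 23.5, and Ctsw, higher in 2 of 3 libraries, was at 5.91 ± 5.12 against 1.07 ± 0.125. Not called, with log2 fold changes, were Ctse (-0.39), Ctsf (-0.52), Ctsg (0.64), Ctso (-0.61), Stfa1 (0.13), Stfa2 (1.14), Stfa2l1 (-0.30) and Serpinb1a (0.73).

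Inhibitor RNA relative to RNA of its targets was described as Cst3 UMIs per UMI of the 7 cysteine cathepsins, with Ctsd left out. The ratio was highest in the dendritic-cell-like class, at 2.14, 2.14 and 2.59. Pericyte/smooth-muscle-like cells were at 1.25, 1.26 and 0.981, below every dendritic-cell-like library. Mature-neutrophil-like (0.745 ± 0.131), tenocyte-like (0.609 ± 0.0794) and sublining-fibroblast-like (0.511 ± 0.0331) cells were lower again. Lining-fibroblast-like cells were at 0.388 ± 0.00614 and infiltrating-monocyte-like cells at 0.340 ± 0.0377. Osteoclast-like (0.264 ± 0.0455) and resident-macrophage-like (0.239 ± 0.0409) cells overlapped. The Spp1-Arg1-macrophage-like class had the lowest mean, at 0.165, 0.168 and 0.168, and overlapped the B-cell-like class, at 0.161, 0.168 and 0.276. With classes from clusters both means were close (0.185 and 0.186), and with free RNA subtracted the B-cell-like class was lower (0.0044 against 0.155). The ratio is of RNA counts and carries no correction for transcript length, so it was compared between classes only. With classes from clusters the dendritic-cell-like ratio was 1.47, 1.16 and 1.82 and that of pericyte/smooth-muscle-like cells 1.19, 1.22 and 0.901, so the libraries overlapped.

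**Figure D4:**
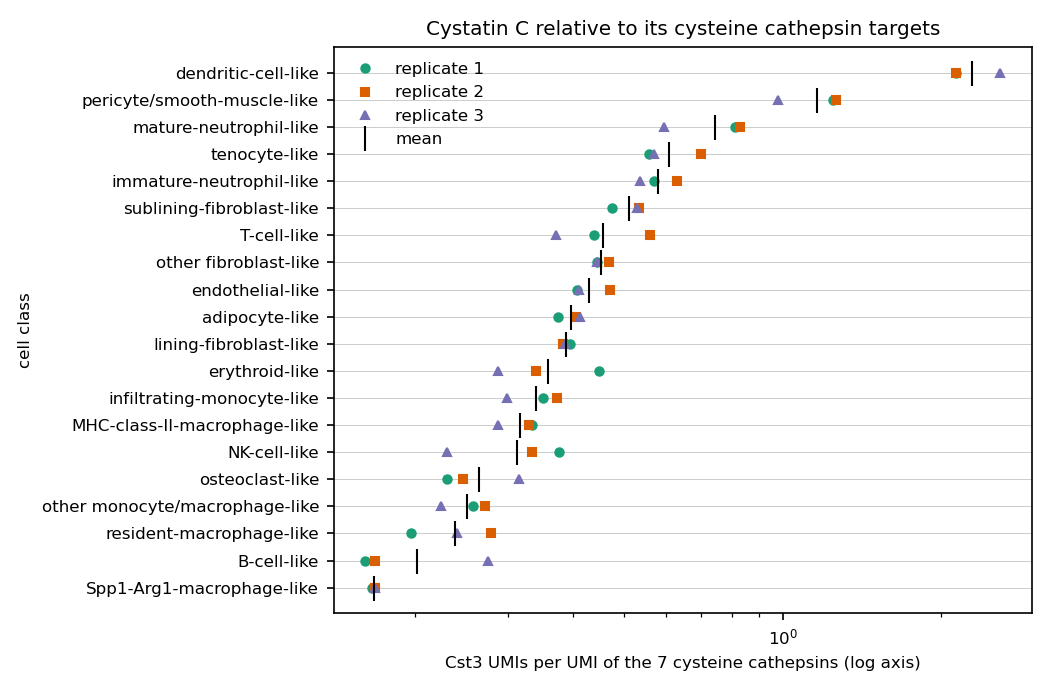
Cst3 UMIs per UMI of Ctsb, Ctsc, Ctsh, Ctsk, Ctsl, Ctss and Ctsz (log axis) in each library (symbols) and as the mean (tick) for 20 cell classes. The dendritic-cell-like class lies at 2.14 to 2.59 and the Spp1-Arg1-macrophage-like class at 0.165 to 0.168.

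Neutrophil-like cells, the largest class, carried Ctsd and Cst3. Ctsd was at 1034, 796 and 1161 and Cst3 at 1200, 905 and 1394 UMIs per 1000000, and neither was called against monocyte/macrophage-like cells, with log2 fold changes of -0.53 and -0.66. Of the 9 genes 0 were higher and 6 lower, where 40.1% of 14101 genes were called, 20.9% higher and 19.2% lower. Ctss was at 504 ± 257, under 2 times its estimate, with a log2 fold change of -2.69 ± 0.13 (SE; adjusted p = 3.30e-08, edgeR). Ctsc, the activator of neutrophil granule proteases, was at 127 ± 58.2 against 878 ± 87.2, and Ctsh at 108 ± 32.0 against 599 ± 50.9, both also under 2 times their estimates. Ctsz (log2 fold change -1.80) and Ctsb (-1.67) were lower too, and Ctsk (0.35) was not called. When the free-RNA estimate was taken off the sums of the reference class only, Ctsk had a log2 fold change of 2.37 (adjusted p = 0.000376, edgeR) and was a call, and with classes from clusters it was -0.039. Within neutrophils, Ctsd was at 1125 ± 95.1 in the mature and 582 ± 163 in the immature class, and the libraries did not overlap. Ctsl was at 196 ± 54.3 in the neutrophil-like class (log2 fold change -1.25), and with cells thinned to 1000 UMIs this was -0.76 and not a call. Scaling by library totals in place of TMM moved the median over all genes from 0.01 to -0.31 on the log2 scale in this comparison, and 6 of the 9 genes were again called lower.

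Other protease genes that were higher in neutrophil-like cells included Ctse, an aspartic cathepsin, at 17.6 ± 3.02 against 2.56 ± 0.570, and the stefin inhibitors. Stfa2l1 was at 881 ± 132 against 20.8 ± 0.717 and Stfa1 at 266 ± 117 against 6.41 ± 1.34, but these genes have near-identical copies and their counts are uncertain. Stfa2l1 was also at 28.4 ± 7.11 in osteoclast-like, 19.4 ± 4.54 in fibroblast-like and 17.8 ± 5.14 in dendritic-cell-like cells. The free-RNA estimate is given for the 9 genes only, so the part of free RNA in these low levels was not tested. Serpinb1a, an inhibitor of neutrophil serine proteases, was at 89.4 ± 72.2 against 11.2 ± 2.03. Stfa2 was at 49.6 ± 17.3 against 1.80 ± 0.472 and Stfa3 at 15.8 ± 5.33 against 0.737 ± 0.0872. Lower were Cstb, at 475 ± 164 against 1554 ± 238, Lgmn, at 85.6 ± 38.1 against 714 ± 129, Cst7, at 0.936 ± 0.372 against 2.47 ± 0.574, and Ctsa, at 127 ± 28.2 against 436 ± 23.5. Of the hydrolases 12 of 25 were lower and 1 was higher. The higher one was Gla, the lysosomal alpha-galactosidase, at 112 ± 16.2 against 43.7 ± 4.84, and Dpp7 was among the lower at 5.93 ± 2.32 against 32.7 ± 3.94. Sort1 was at 40.7 ± 10.7 against 14.0 ± 1.86 and Cd68 at 115 ± 33.2 against 631 ± 74.9. In the proton pump Atp6v0a1 was higher at 135 ± 23.5 against 68.8 ± 5.22 and Tcirg1 lower at 46.7 ± 8.79 against 143 ± 19.5. Of the regulators Tfeb, the main activator of lysosomal genes, was higher at 65.7 ± 8.97 against 36.3 ± 2.32 and Tfec lower at 8.57 ± 3.74 against 36.5 ± 2.30. Not called, with log2 fold changes, were Ctsf (-0.06), Ctsg (0.92), Ctso (-0.88) and Ctsw (0.48).

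Ctsl had its highest mean level outside the phagocytes. It was at 1495, 1548 and 1324 in 192 adipocyte-like cells, which store fat, and at 1414 ± 172 in Spp1-Arg1-macrophage-like cells, and the libraries of the 2 classes overlapped. After these came the other monocyte/macrophage-like cells at 513 ± 117. The same adipocyte-like cells held Ctsb at 1902 ± 186 and Cst3 at 1609 ± 169, but Ctsh at 55.2 ± 23.9, near its estimate of 55.4. Ctsz was highest in Spp1-Arg1-macrophage-like (1263 ± 35.8) and resident-macrophage-like (1239 ± 38.1) cells, which overlapped, and Ctsh in dendritic-cell-like (652 ± 20.7) and MHC-class-II-macrophage-like (648 ± 42.4) cells, which also overlapped. Cst3 in pericyte/smooth-muscle-like cells (1759 ± 94.2) overlapped that of osteoclast-like cells (1708 ± 386).

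Across the 20 classes, the profiles of some of the genes were close to each other. Pearson's r of log2 levels was 0.95 for Ctsc with Ctss, 0.89 for Ctsb with Ctsl and 0.85 for Ctsb with Ctsd, while that of Ctsk with the others ran from -0.43 for Ctsc to 0.07 for Ctsz. These are descriptions over classes that share libraries and free RNA. Of 6618 genes, those closest to Ctsk were Bdh2, Slc4a2 and Src (r of 0.89, 0.89 and 0.86). Fcgr2b, Clec4a1 and Aif1 were closest to Ctss (0.98, 0.98 and 0.98). Clec4a1, Fcgr2b and Ms4a6c were closest to Ctsc (0.96, 0.96 and 0.96), and Pla2g15 and Cbr2 to Ctsb (0.93 and 0.90). For Ctsd they were Folr2, Ccl12 and Pf4 (0.91, 0.90 and 0.89), for Ctsz Anxa4, Psap and Ctsa (0.96, 0.95 and 0.94) and for Ctsh Rab7b, Cnpy3 and Arhgap22 (0.90, 0.89 and 0.84). For Ctsl they were Cd302, Idh1 and Fth1 (0.84, 0.84 and 0.84) and for Cst3 Ifi205, Atox1 and Mvp (0.83, 0.83 and 0.80). Cbr2, Folr2 and Ms4a6c are also markers of the gates.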

How the data were processed

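The labels name the DNBelab C kit for the single-cell libraries and the DNBSEQ-T7 as sequencer. The deposited matrices hold the authors' UMI counts for each gene in each barcode, and the file headers name PISA 1.0 as their writer. The submitters' processing notes name Seurat 3.0.2, R 3.6 and the build GRCm39 (mm39). For the aligner and the annotation: not given in the sources used here. Barcodes are running names per library, of which 693 occur in all 3 libraries, so shared cells cannot be read from them.

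Barcodes under 200 genes or over 20% mitochondrial counts (82) were left out. Doublets were scored with Scrublet in scanpy 1.11.5 and 1847 with a score over 0.2 were left out. A marker was positive in a cell if its UMIs exceeded the cell's depth times the library's share (Poisson p under 0.05). The class with most positive markers, at least 2 and leading by 1, was taken. Counts summed per library and class (at least 20 cells) were fitted in R 4.3.3 by edgeR 4.0.16 after filterByExpr and TMM, with the library as block; DESeq2 1.42.0 was an alternative. Both sums of a library come from the same mice, which is where the pairing comes from. The fit was tested on simulated data.

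Alternatives were no filter on low counts, library totals, no replicate block, each library left out, doublets kept, a stricter gate, classes from clusters, thinning to 1000 UMIs and subtraction of free RNA. The stricter gate asked for 3 positive markers and a lead of 2 for the broad classes only. The classes within monocyte/macrophage-like and fibroblast-like cells kept the first rule, so for comparisons within them it varied the broad gate alone. The text names all 9 genes and all tested genes of the lists of other cathepsins and of inhibitors and processing, and from the other lists the called gene with the largest fold change in each direction, alike in all 3 libraries, at 10 or more UMIs per 1000000. The likeness genes are the 3 with the highest r at 50 or more UMIs per 1000000 in a class. A gene that each of these rules names is not reported here. Atp6v0a3 is the 1 of 77 listed symbols not matched. The genes, lists and comparisons were chosen with earlier results of these data known, and the gate rule and doublet threshold were set after the matrices were seen. The SDs do not cover error from free RNA.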

Additional observations from a re-analysis of the deposited data

How the results depend on the processing

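Of 84 counts of called genes among the 9 under the alternatives, 80 were within 1.5 times the value reported, and of 754 fold changes 725 kept their direction and side of the threshold, with 11 now past it and 6 no longer past it. The other 12 changed sign, none of them called in the reported fit or under the alternative. Ctsh of dendritic-cell-like cells was at -0.040 with no filter, -0.013 with the stricter gate and -0.055 with free RNA subtracted, and from -0.087 to 0.12 with each replicate left out, below 0 without replicate 1 or 2. With classes from clusters Ctsk of neutrophil-like cells was at -0.039 and Ctsc of Spp1-Arg1-macrophage-like cells at 0.15. In lining-fibroblast-like cells Ctss was at 0.017 with no filter and 0.095 with library totals, and from -0.041 to 0.047 with each replicate left out, above 0 without replicate 1. Ctsz was at 0.065 with library totals and 0.0025 when thinned. In the resident-macrophage-like comparison 4 genes were called in place of 2 with classes from clusters and 4 with free RNA subtracted, Ctsl and Ctsz being added. In the lining-fibroblast-like comparison 0 were called in place of 1 with classes from clusters and 0 without replicate 2. The cause was not tested. Leaving out each replicate gave 7 to 7 called genes for osteoclast-like, 6 to 7 for dendritic-cell-like, 6 to 6 for neutrophil-like, 8 to 8 for fibroblast-like, 2 to 2 for resident-macrophage-like, 4 to 5 for Spp1-Arg1-macrophage-like and 0 to 1 for lining-fibroblast-like cells. With no replicate block, that is without the pairing by library, these counts were 7, 6, 6, 8, 2, 4 and 1, and no call among the 9 genes changed. Library totals in place of TMM moved the median over all genes from 0.02 to -0.10 for Spp1-Arg1-macrophage-like and from -0.02 to 0.09 for lining-fibroblast-like cells on the log2 scale.

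Thinning to 1000 UMIs lowered the number of all genes called from 3675 to 1959 for osteoclast-like, from 1641 to 738 for dendritic-cell-like, from 1815 to 726 for resident-macrophage-like, from 1301 to 681 for Spp1-Arg1-macrophage-like and from 1586 to 475 for lining-fibroblast-like cells, a setting with fewer counts. Subtracting free RNA moved 114 of 180 levels and 12 of 23 ratios by more than 1 SD, among them the Cst3 ratio of pericyte/smooth-muscle-like cells to 1.95 and of dendritic-cell-like cells to 2.67. With free RNA subtracted, Ctsc of fibroblast-like cells had a log2 fold change of -7.08 (edgeR, adjusted p = 0.0705). Without replicate 3, Ctss in pericyte/smooth-muscle-like cells was at 146 in place of 223, and without replicate 1, Ctsk in immature-neutrophil-like cells at 48.6 in place of 80.2. Cell number limits B-cell-like, NK-cell-like and erythroid-like cells, whose levels rest on 20 to 59 cells a library.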

Other observations

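Plasmacytoid-dendritic-like cells, 11 to 37 a library and so in no test, held Ctsh at 901, 1254 and 854 UMIs per 1000000, above the dendritic-cell-like class in each library, and Ctsb at 885, 1095 and 1044. Their Ctsc (89.5 ± 61.0) and Ctsk (32.3 ± 14.9) were near the free-RNA estimates of 81.0 and 49.5. Chondrocyte-like cells, 18 to 30 a library, held Ctsk at 278, 204 and 192 against an estimate of 33.5, and Cst3 at 1294 ± 306. Granulocyte-progenitor-like cells, 9 to 44 a library, had Ctsc at 523, 141 and 600, a mean under 2 times the estimate of 278 and so not separable from background by that measure. The estimate takes S100a8 and S100a9 UMIs of this class as free RNA, which put free RNA at 100%, 100% and 66.4% of its UMIs.

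Among inhibitors, Stfa3 was at 24.1 ± 8.24 UMIs per 1000000 in lining-fibroblast-like and 0.689 ± 0.134 in sublining-fibroblast-like cells, a log2 fold change of 4.95 ± 0.24 (SE; adjusted p = 3.01e-08, edgeR), higher in all 3 libraries. Its level was 43.2 ± 19.8 in immature-neutrophil-like and 9.17 ± 1.73 in mature-neutrophil-like cells. The stefin genes have near-identical copies, so the count of this copy is uncertain. Cst6, cystatin E/M, was also higher in lining-fibroblast-like cells, at 5.61 ± 1.56 against 1.61 ± 0.537.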
